A study of Homo sapiens with 8 samples.

Results

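BCL2, BCL2L1, MCL1, BIRC2, CASP8 and CFLAR are genes of cell survival and of death-receptor apoptosis, and their m6A (N6-methyladenosine) signal was compared between HL-60 cells given decitabine and HL-60 cells given DMSO. The members are all rows of the authors' deposited table whose gene name is one of these 6 symbols, which gives 10 features of 4626 in all. HL-60 is an established human promyelocytic leukaemia line, labelled wild type here, and decitabine is a deoxycytidine analogue that traps DNA methyltransferases. Decitabine was added to 100 nM at the start and again after 24 and 48 hours, the control group received the vehicle DMSO, and both were harvested at 72 hours. Each treatment had 2 cultures, described only as duplicates, and each culture gave an m6A immunoprecipitate and an input library, which makes 8 libraries in 4 groups of 2.

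The deposited table lists features selected by the authors, with a log ratio and a p-value for each and no value per library. No error, replicate spread or depth can therefore be attached to any ratio below, and all p-values are the authors' own and not marked as adjusted. Which arm is divided by which is left unsaid in the labels. The name of the deposited data carries the drug, which makes decitabine over DMSO the likely meaning of a positive value. Features are therefore called positive or negative below, and a fold is the larger arm over the smaller. How the input libraries entered the ratio is likewise unknown, so differences in RNA level and in methylation cannot be told apart. Of 7 genes fixed as markers of promyelocytic cells, 1 had a listed feature, and of 5 markers of other blood lineages 0 had. Since the table lists changes and not levels, the labelled cell type could not be checked with it.

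The m6A mark is placed on adenosines of messenger RNA by a nuclear writer complex, often near stop codons and in long exons, and is read by proteins that act on splicing, translation and decay. BCL2, BCL-XL (from BCL2L1) and MCL1 hold the mitochondrial outer membrane intact by binding the pore-forming proteins BAX and BAK and their BH3-only activators. On the death-receptor arm, FADD brings caspase-8 to the receptor, and cFLIP (from CFLAR) competes with caspase-8 there. The ubiquitin ligase cIAP1 (from BIRC2) marks RIPK1 in the TNF receptor complex and so favours survival signalling. Myeloid leukaemia cells commonly depend on BCL2 and MCL1.

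All 6 genes, chosen with earlier results known, had a listed feature, and neither sign was shared by the whole group. Of the 10 features, 4 were positive (BCL2, BIRC2 and 2 in MCL1) and 6 were negative (BCL2, BCL2L1, CFLAR, MCL1 and 2 in CASP8). Among all listed features 56.3% were positive and 43.7% negative. With ratios that are multiples of 0.5 left out, which removes BIRC2, 3 of 9 features were positive and 6 negative, beside 45.2% and 54.8% of all features left. BCL2 and MCL1 carried features of both signs, in opposite order: BCL2 was positive near its 5' end and negative near its 3' end, while MCL1 was negative near its 5' end and positive near its middle. Both features of CASP8 were negative, as were the single features of BCL2L1 and CFLAR. BIRC2 stood apart from the rest of the group in size, at 109-fold, which is 19.7 times the next largest ratio of the group. Among the 2604 positive features listed, that of BIRC2 ranked 593 by size. The other 9 ratios lay between 1.84-fold and 5.53-fold. The median over the 10 was 4.02-fold, beside 5.17-fold over all listed features. By sign, the median was 5.11-fold for the 4 positive features and 3.21-fold for the 6 negative ones, beside 10.1-fold and 3.95-fold in the whole table.

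**Figure D1:**
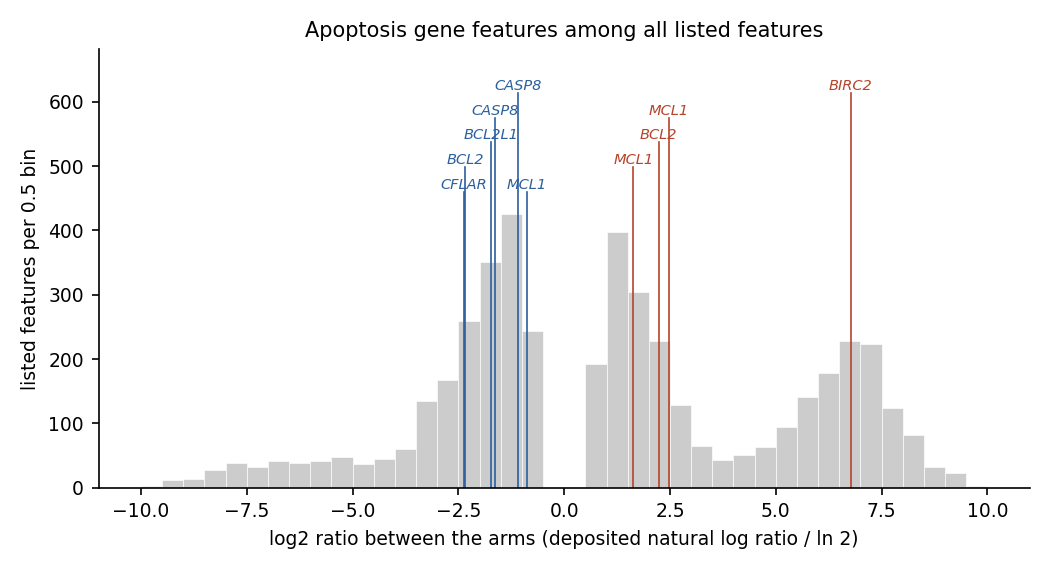
Number of listed features (vertical axis) in bins of 0.5 on the log2 scale of the ratio between the arms (horizontal axis, positive values likely decitabine over DMSO), with a line at each of the 10 features of the 6 genes. The 6 negative lines and 3 of the positive ones lie between 1.84-fold and 5.53-fold, and BIRC2 lies in the separate group of large positive ratios; 1 listed feature is beyond the axis.

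BCL2, the founding anti-apoptotic member of the family (ENSG00000171791.13), had its features near the ends of a span of 196745 nt on the minus strand of chromosome 18 (hg38, 63123346 to 63320090). In the authors' deposited table the feature towards the 5' end was positive at 4.69-fold (63318783 to 63318832, p = 0.003). It lay 937 nt downstream of the RefSeq transcription start. The feature towards the 3' end was negative at 5.05-fold in the authors' deposited table (63127633 to 63127682, p = 0.0014) and lay 4287 nt before the 3' end of the span. The fold sizes were close and the signs opposite, so the ratio at the 5' feature was 23.7 times that at the 3' feature. The 2 features were 191100 nt apart in the genome. Of the 607 genes with exactly 2 listed features, 37.9% had a larger difference between the ratios of their features than BCL2. Among the 318 of these without any ratio that is a multiple of 0.5, a class described with BIRC2, 12.9% had a larger difference. The median difference there was 4.68-fold. Both sets mix pairs of the same sign with pairs of opposite sign, and the latter were not compared apart. The p-value of the 5' feature was among the larger ones, since 84.6% of the listed features had a smaller one.

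MCL1 (ENSG00000143384.13), which codes for a short-lived survival protein replaced continually from its mRNA, is a compact gene of 5053 nt on the minus strand of chromosome 1 (hg38, 150574558 to 150579610) and had 3 features. The feature nearest the 5' end was negative at 1.84-fold in the authors' deposited table (150578994 to 150579043, p = 0.00086), 567 nt into the span. The second feature, positive, had a 3.1-fold ratio in the authors' deposited table (150577332 to 150577381, p = 0.0022). The third, also positive, had a 5.53-fold ratio in the authors' deposited table (150577084 to 150577133, p = 0.00089). Counted from the 5' end, these began 2229 and 2477 nt into the span, close to its middle, and 198 nt from each other. The 2 neighbours thus shared a sign and differed by 1.78-fold, while the nearer of them and the 5' feature, 1612 nt apart, differed by 5.73-fold. From the lowest to the highest ratio the gene covered 10.2-fold. That is a narrower range than in 83.6% of the 213 genes with 3 listed features, and than in 66.2% of the 77 such genes without a multiple of 0.5. The smallest p-values of the gene, 0.00086 and 0.00089 in the authors' deposited table, belonged to features of opposite sign, so a sign given to MCL1 by its smallest p-value hardly separates them.

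Genes whose outermost features differ in sign were common in the table. Of the 946 genes with several listed features, 229 (24.2%) were positive at the 5'-most and negative at the 3'-most feature, as BCL2 was. A further 228 (24.1%) had the arrangement of MCL1, negative first and positive last. Both outermost features were negative in 180 genes (19%), CASP8 among them. Among the 439 such genes without a multiple of 0.5 the shares were 24.4%, 22.6% and 31.9%.

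BCL2L1 codes for BCL-XL and, by another 5' splice site, for the pro-apoptotic short form BCL-XS (ENSG00000171552.13). Its single feature was negative at 3.34-fold in the authors' deposited table (minus strand of chromosome 20, hg38 31722147 to 31722196, p = 0.00063). The gene spans 59512 nt, and the feature sat at its 5' side, 672 nt downstream of the nearer of the 2 RefSeq starts with 57695 nt of the gene beyond it. It was therefore at the same side of its gene as the positive feature of BCL2 and the negative feature of MCL1, and of the sign of the latter. Each of the 3 survival genes of the BCL2 family thus held 1 negative feature. These negative ratios, from the authors' deposited table, were smallest in MCL1 (1.84-fold), larger in BCL2L1 (3.34-fold) and largest in BCL2 (5.05-fold).

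**Figure D2:**
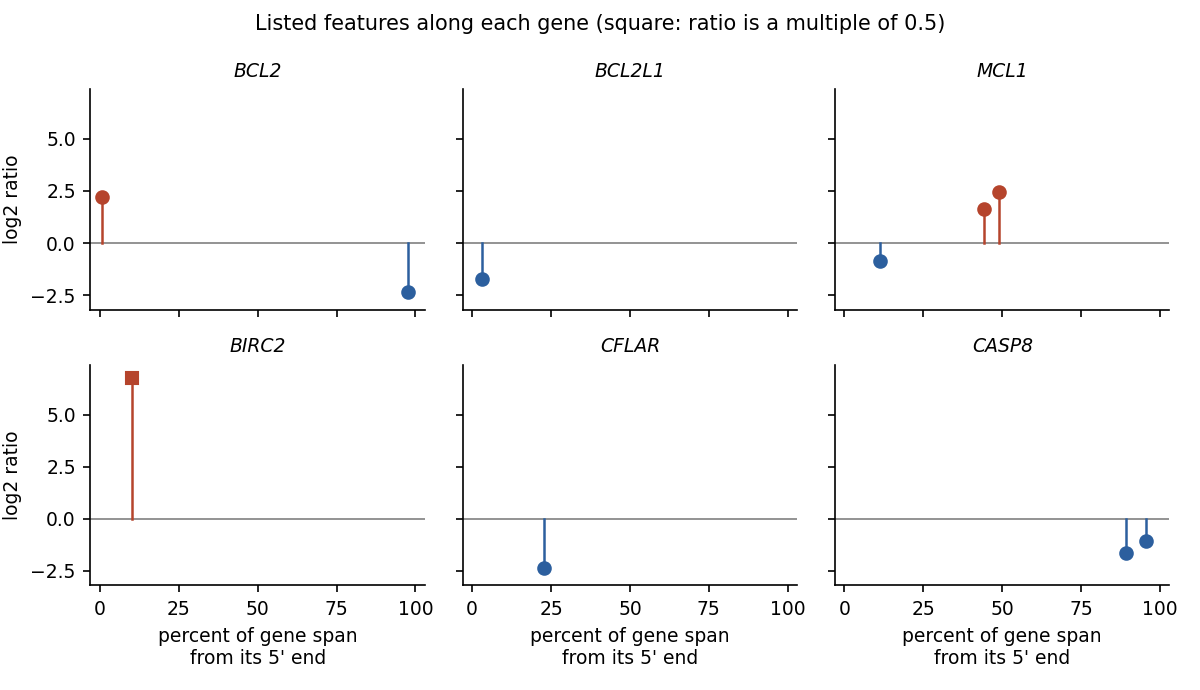
Log2 ratio between the arms (vertical axis) of each listed feature against the position of its 5'-most base as a percent of the gene span counted from the 5' end (horizontal axis), with a panel per gene; circles are ordinary ratios and the square is a multiple of 0.5. BCL2 goes from positive at its 5' end to negative at its 3' end, MCL1 from negative to positive, and the features of CASP8 are both negative near its 3' end.

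CASP8 codes for the initiator caspase of the death receptors (ENSG00000064012.22) and is a gene of 54249 nt on the plus strand of chromosome 2 (hg38, 201233463 to 201287711). Both of its features were written as several blocks, as windows laid across an intron are, a form that 4.19% of all listed features had. In the authors' deposited table the first was negative at 3.08-fold (p = 0.00032) and covered 43 nt from 201281873 to 201281915 and 7 nt from 201284816 to 201284822, with a gap of 2900 nt. The second was negative at 2.12-fold in the authors' deposited table (p = 0.00062) and covered 46 nt from 201285272 to 201285317 and 4 nt from 201286459 to 201286462, with a gap of 1141 nt. The stretch from the inner block of the first to the inner block of the second was 502 nt long, and if no intron lies within it the features mark the start and the end of the same exon. Their ratios differed by 1.45-fold, a smaller difference than in 88.3% of the 607 genes with 2 listed features and in 83% of the 318 without a multiple of 0.5. No listed absolute log ratio is under 0.501, so every pair of opposite sign differs by more than this. Pairs of the same sign were not compared apart. The last blocks of the CASP8 features ended 2889 and 1249 nt before the 3' end of the gene. The 8 features of the other genes were each 1 unbroken stretch of 50 nt.

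CFLAR, the gene of the caspase-8 inhibitor cFLIP (ENSG00000003402.20), lies upstream of CASP8 on the same strand, with CASP10 between them. Its single feature was a negative one, 5.19-fold in the authors' deposited table (hg38 chromosome 2, 201129982 to 201130031, p = 0.0017). This was the largest negative ratio of the 6 genes, and it ranked 793 by size among the 2022 negative features listed. RefSeq gives CFLAR 4 starts in the table used, and the feature lay 1017 nt downstream of the second of them and 2750 nt upstream of the third. Transcripts that begin at the third start, or further downstream, therefore do not hold it. The inhibitor and its target thus had features of the same sign in this list, at opposite sides of their genes: 22.8% of the span from the 5' end in CFLAR, and 89.2% and 95.5% in CASP8. CASP10, the closest relative of CASP8 and its neighbour, had no listed feature.

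BIRC2 codes for the ubiquitin ligase cIAP1 (ENSG00000110330.8). Its single feature had a positive ratio, 109-fold in the authors' deposited table (plus strand of chromosome 11, hg38 102350426 to 102350475, p = 3.1e-06), the smallest p-value of the 10. Only 9.42% of all listed features had a smaller one. The feature lay 3052 nt downstream of the nearer of the 2 RefSeq starts and left 28195 nt of the gene beyond it. Within a relative error of 1e-08 the ratio was a whole multiple of 0.5. This held for 30.6% of all listed features and for none of the other 9 here. A quotient of whole numbers is such a multiple when its smaller term, in lowest terms, is 1 or 2. Whether the smaller arm of BIRC2 held few reads was not tested. BIRC3, the neighbouring gene of the related cIAP2, had no listed feature.

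The ratios of all 10 features were quotients of whole numbers, with a relative error under 1e-10 and a denominator of at most 2000. In lowest terms the authors' deposited ratio was 109 to 1 in BIRC2, 313 to 62 and 436 to 93 in BCL2, 864 to 259 in BCL2L1 and 571 to 110 in CFLAR. It was 1977 to 1072, 208 to 67 and 1299 to 235 in MCL1, and 182 to 59 and 17 to 8 in CASP8. What these whole numbers count is not stated, and the totals behind them can be any multiple of them. Read as a natural log, 3965 of the 4626 ratios (85.7%) were quotients of this kind, and read as base 2, 19 were. Over the 3965 quotients read as a natural log, the median smaller term was 66, with 32 for the positive ones and 96 for the negative ones. In lowest terms the smaller term was 1 in BIRC2 and at least 8 in the others.

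The wider pathway was described with 63 genes in 8 roles, by the feature with the smallest p-value in each gene. Of these, 14 had a listed feature and 49 had none, and a gene may be unlisted because it was not measured as well as because it did not pass. The 14 include the 6 genes above, chosen with results known, and without them 8 of 57 were listed. The pathway lists were also chosen with results known, so these 8 are no independent remainder. Among the 14, the leading feature was positive in 6 genes and negative in 8, beside 58.9% positive and 41.1% negative among all 3114 listed gene names. Of 6 anti-death BCL2 proteins, 3 were listed, all of them the genes described above, with 3 positive and 3 negative features between them. By the smallest p-value all 3 were led by a negative feature, in MCL1 by 0.00086 against 0.00089 in the authors' deposited table, and by the largest ratio MCL1 was positive. BCL2L2, BCL2A1 and BCL2L10 were not listed. None of the 3 pore-forming effectors, the 8 BH3-only proteins or the 10 death receptors and ligands had a listed feature. The share of all measured genes that is listed is unknown, so these counts are not read as a trait of those roles. Of 9 caspases and apoptosome genes, CASP8 alone was listed.

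The receptor complex, which passes the signal from death receptors and the TNF receptor, was the longest of the lists and held most of the positive genes. Of its 13 genes 6 were listed, 5 led by a positive feature and CFLAR by a negative one. Among all listed gene names 58.9% were led by a positive feature. RIPK1, the kinase that cIAP1 ubiquitinates, was positive at 5.81-fold in the authors' deposited table (p = 0.0011). FADD, the adaptor of caspase-8, was led by a positive 2.3-fold feature (p = 0.0023) and also held a negative 1.8-fold feature (p = 0.0034) in the authors' deposited table. The deubiquitinase CYLD had a positive 104-fold ratio in the authors' deposited table (p = 0.0028). TNFAIP3, a ubiquitin-editing enzyme, had a positive 125-fold ratio in the authors' deposited table (p = 6.1e-05). TRAF3, an adaptor of the receptor complex, was positive at 98.5-fold in the authors' deposited table (p = 0.00096). These last 3 ratios were multiples of 0.5 at the relative error of 1e-08, as in BIRC2. Those of CYLD and TRAF3 were also quotients of whole numbers at the error of 1e-10, while that of TNFAIP3 was not read as one. With multiples of 0.5 left out, RIPK1 and FADD were the only positive genes of the pathway against 7 negative ones. Among all genes 45.3% were then positive. These negative genes include BCL2, BCL2L1, MCL1, CASP8 and CFLAR, which were chosen with results known. BIRC6 and FBXW7 were the only others, from lists that were also chosen with results known.

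Of 10 IAPs and their antagonists, 3 were listed. BIRC2 was positive. BIRC6, a giant ubiquitin-conjugating member of the family, held 2 negative features in the authors' deposited table, of 4.42-fold (p = 0.0019) and 2.31-fold (p = 0.0028). XAF1, an antagonist of XIAP, was negative at 22.5-fold in the authors' deposited table (p = 0.0007), a multiple of 0.5. As with TNFAIP3, this held at the relative error of 1e-08, and the ratio was not read as a quotient of whole numbers at 1e-10. Among 4 genes that govern the turnover of MCL1 and BCL2 protein, FBXW7, which directs MCL1 to degradation, was negative at 1.73-fold in the authors' deposited table (p = 0.0013). The 8 listed pathway genes beyond the 6 thus divided into 5 positive and 3 negative, beside 58.9% positive among all listed gene names. Their 10 features were 5 positive and 5 negative, beside 56.3% positive among all listed features.

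**Figure D3:**
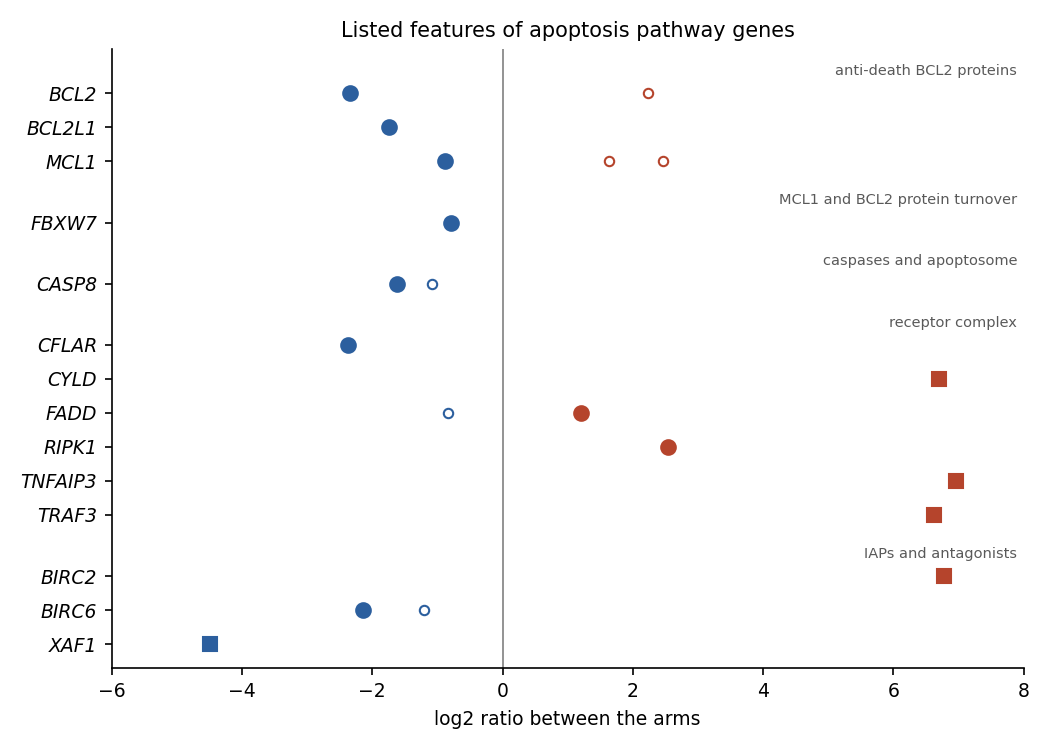
Log2 ratio between the arms (horizontal axis) of each listed feature of the 14 listed pathway genes (vertical axis), grouped by role. Filled symbols are the feature with the smallest p-value of the gene, open symbols its other features, and squares are multiples of 0.5; the 3 BCL2 proteins have 3 negative and 3 positive features, and the positive ratios near or above 98.5-fold are all squares.

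The features of the 6 genes were also set against the genes around them. None of the 8 RefSeq genes that overlap their spans had a listed feature, and of the 11 protein-coding genes next to them on either side 2 were listed. The share of all RefSeq genes with a listed feature was not computed, so these counts give no contrast. PHLPP1, a phosphatase gene beside BCL2, held negative features of 13.6-fold (p = 0.0011) and 2.12-fold (p = 0.00096), per the authors' deposited table. ENSA, beside MCL1, was negative at 3.11-fold in the authors' deposited table (p = 0.00031). Both genes share their sign with 1 of the features of their neighbour and oppose the others.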

How the data were processed

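m6A was measured by methylated RNA immunoprecipitation sequencing. Per the labels' protocols, 2 µg of fragmented RNA was precipitated with 5 µg of anti-m6A antibody and read as single 50-base reads. The submitters' processing notes name STAR 2.7.3a and the build hg38. For the scoring of features, the tool and its settings are not given in the sources used. The authors deposited a table of log ratios and p-values with no value per library, so depth is unknown and the planned fits over libraries were not run. The deposited log ratio was taken as a natural log, since its exponential is then a quotient of whole numbers for most features. The deposited p-value does not exceed 0.00455 and no absolute log ratio is under 0.501.

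Positions are 1-based, both ends counted in. Spans and starts came from RefSeq tables of GRCh38.p14, the assembly of hg38. All 63 pathway symbols matched, but MCL1 had no entry among the starts. Exons, introns and UTRs were not annotated, and no feature sequence was read, since no genome was used. The 6 members and the pathway lists were chosen with earlier results of these data known, so counts stand beside the share of all features and no test over them was made. All features of the 6 genes, every listed pathway gene (up to 20) and listed neighbours are named. Counts of genes with several features leave out chromosome Y, whose features copy those of chromosome X. Reading of ratios as whole-number quotients was tested on simulated data. Python 3.11.15, pandas 2.3.3, numpy 2.4.6 and matplotlib 3.10.9 were used.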

Additional observations from a re-analysis of the deposited data

How the results depend on the processing

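The 4 positive and 6 negative features of the 6 genes were counted under 4 alternatives that could change them. Taking rows inside the gene span on its strand left both counts as they were. Leaving out multiples of 0.5 removed BIRC2 and gave 3 positive and 6 negative. Keeping ratios of 2-fold or more removed the negative feature of MCL1 and gave 4 and 5. Keeping a deposited p under 0.001 gave 2 positive and 4 negative, and removed both features of BCL2, the feature of CFLAR and the 3.1-fold feature of MCL1. The shares of all listed features under the cuts on fold and on p are not given here, so these counts give no contrast. Over the pathway genes, the 6 members included, multiples of 0.5 moved the positive count from 6 to 2 and the negative count from 8 to 7. Representing each gene by its largest ratio gave 7 positive and 7 negative, with MCL1 the gene that changed. A change of log base cannot alter a sign. Read as base 2, BIRC2 would stand at 25.8-fold and the others between 1.53-fold and 3.27-fold. No paired analysis was possible because the deposited table holds no value per library, and no replicate could be left out. For the same reason depth sets no limit that can be computed here.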
